A study of Caenorhabditis elegans with 16 samples.

Results

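Adults of the nematode *Caenorhabditis elegans* that were labelled H3K27ac-deficient and kept on food were compared with wild-type adults that had been fasted, to see which functions of the fed labelled-deficient group already lay at the fasted wild-type level. The libraries were chosen by their labels alone, and they are 8 of the 16 in the series, 4 on each side. The fed labelled-deficient animals carried a *jmjd-3.1* mutation, named gk384 in the titles and gk387 in the genotype field, and were labelled as having eaten bacteria with a *cbp-1* RNA interference plasmid from the first larval stage onwards. The protocol texts conflict on this, since one names RNA interference plates and another OP50-1 plates for the time up to adult day 1, so the length of the exposure is uncertain. Their food stayed unlimited for the last 24 h, up to adult day 2. The fasted group was the N2 Bristol wild type on bacteria with the empty vector (EV), without food for the same 24 h. Fed N2 animals on EV and fasted labelled-deficient animals form the other 2 groups. Both entered the statistical model, and fed wild type is shown beside the comparison as the starting level. All 16 libraries were whole animals grown at 20 °C, all carry the same batch number, and the replicates came from independently synchronised populations. Mutation, RNA interference and food differ together here, so their contributions cannot be told apart. Because each library pools all tissues, fewer cells of a type and less RNA per cell cannot be told apart either.

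Acetylation of lysine 27 of histone H3 (H3K27ac) marks active enhancers and promoters. It is written by the acetyltransferase CBP/p300, whose main *C. elegans* form is CBP-1. JMJD-3.1 removes methyl groups from the same lysine, which the polycomb-like MES complex adds. Fasting is known to switch the *C. elegans* intestine from storing fat and making yolk to hydrolysing and oxidising fat, under regulators such as the nuclear hormone receptor NHR-49, the lysosome regulator HLH-30 and the FOXO factor DAF-16.

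Fed labelled-deficient libraries held 20585430 to 27792762 estimated reads and fasted wild-type libraries 17899880 to 20908582. *cbp-1* (WBGene00000366, chromosome III, 9766509 to 9774825, WBcel235) was at 178, 248, 179 and 234 CPM (reads of a gene scaled to one common library total, scaled by the trimmed mean of M values, TMM) in the 4 fed labelled-deficient libraries. In fasted wild type it was at 128, 171, 151 and 147 CPM. The groups did not overlap, and the higher level was in the libraries labelled as the knockdown (log2 difference 0.49, SE 0.14, edgeR quasi-likelihood adjusted p 0.00391). Counts do not separate the animal's message from RNA of the interference trigger. *jmjd-3.1* was at 17.4 ± 2.71 CPM against 20.0 ± 2.65 CPM (SD, n = 4), a log2 difference of -0.20 with a 95% interval of -0.45 to 0.044. Whether these reads lie outside the deleted stretch is not known, so they do not check the mutation. Since neither target was lower in the fed libraries than in fed wild type, the group is called by its label throughout, and every direction given rests on that label. Each library came from many pooled animals, one mutant strain was used, and RNA interference acts on all tissues it reaches to a degree that was not measured here.

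Most genes differed detectably from the fasted level, and most of these differences were smaller than 2-fold. Of 15840 tested genes, 4813 had more reads in fed labelled-deficient than in fasted wild-type libraries and 5259 were lower at an adjusted p under 0.05 (30.4% and 33.2%, 63.6% in all, edgeR quasi-likelihood test, Benjamini-Hochberg over all tested genes). Changes of at least 2-fold were found for 1043 genes (6.58%) in the higher and 2560 (16.2%) in the lower direction. A gene was called held at the fasted level where the 95% interval of its log2 difference lay wholly within a 1.5-fold change either way. That was so for 3099 genes, or 19.6%, of which 579 (3.66% of all tested) also passed the test with a small difference. Counts of held genes include those. The held share depends on the bound, since with a 2-fold bound 8218 of the 15840 genes, a majority, were held. The shares of all genes called higher, called lower and held are the background for every list count below. For 3248 genes (20.5%) the data showed neither a difference nor a held level. The 4 libraries of one group all lay on one side of the 4 of the other for 57.8% of genes. The median log2 difference over all tested genes was -0.085. In the side-by-side comparisons, fasting of wild type raised 30.4% and lowered 30.6% of genes and left 24.5% within 1.5-fold. The fed labelled-deficient group against fed wild type gave 24.6% higher and 31.7% lower. With library size in place of TMM those 2 splits were 7458 higher with 2523 lower and 5903 higher with 3018 lower genes, and the median log2 change of all genes moved up by 0.34 and 0.29. The comparison of fed labelled-deficient with fasted wild-type libraries moved by -0.045. Small differences from fed wild type therefore depend on the scaling more than differences from fasted wild type do. The 3 comparisons share libraries, so their values are given next to each other and no overlap between them is drawn.

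**Figure D1:**
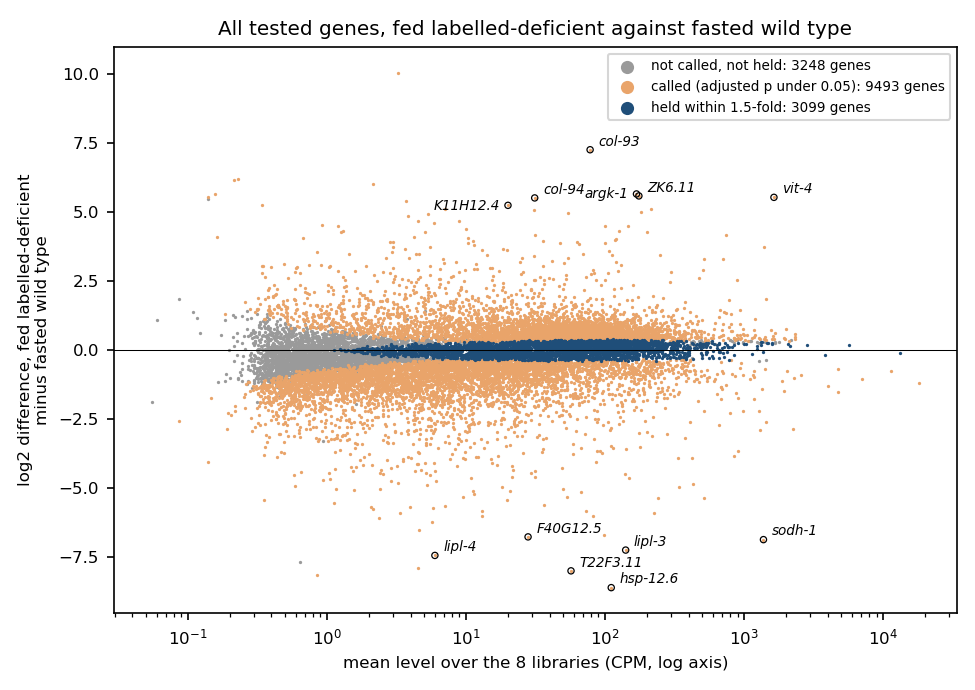
Difference between fed labelled-deficient and fasted wild-type libraries (log2, vertical axis) against mean level over the 8 libraries (CPM, log axis) for every tested gene. Grey points are genes not called, light points called genes and dark points genes held within 1.5-fold. The 6 largest differences in each direction among genes averaging at least 5 CPM are named, from *col-93* at the top to *hsp-12.6* at the bottom.

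The 6 largest deficits were genes that fasting switches on in wild type and that stood much nearer to their fed level in the fed labelled-deficient group. *hsp-12.6* (WBGene00002013, chromosome IV, 9446229 to 9447228), a small heat shock protein gene, was at 0.528, 0.788, 0.396 and 0.505 CPM in the fed labelled-deficient libraries. Fasted wild type had 233, 226, 229.7 and 199 CPM, and fed wild type 0.358 ± 0.182 CPM (SD, n = 4). The log2 difference was -8.60 (SE 0.22, edgeR adjusted p 2.38e-19). Every fed labelled-deficient library was far below every fasted wild-type library. *sodh-1* (WBGene00010790, chromosome V, 11888248 to 11889650), an alcohol dehydrogenase gene, was at 23.5, 23.2, 28.4 and 19.1 CPM against 2765, 2748, 2774 and 2685, a log2 difference of -6.86 (SE 0.12). Its fed labelled-deficient level was above fed wild type, at 13.3 ± 1.53 CPM (log2 0.83, SE 0.13, edgeR adjusted p 8.83e-06). The lysosomal acid lipase genes *lipl-3* and *lipl-4* differed by -7.24 and -7.43, and the genes *T22F3.11* and *F40G12.5* by -7.99 and -6.76. *lipl-4* had only 0 to 3 reads per fed labelled-deficient library against 216 to 279, so the size of its deficit is imprecise.

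The 6 largest excesses ran the other way, in genes that fasting turns down in wild type and that the fed labelled-deficient group kept wholly or in part. *vit-4* (WBGene00006928, chromosome X, 3558769 to 3563965), a yolk protein gene, was at 2913, 3495, 2998 and 3484 CPM in the fed labelled-deficient libraries and at 63.2, 73.1, 72.3 and 67.3 CPM in fasted wild type. The log2 difference came to 5.55 (SE 0.12, edgeR adjusted p 4.91e-18), and the groups were well apart. *argk-1* (WBGene00009706, chromosome V, 16103894 to 16105952), an arginine kinase gene, was at 323, 341, 340.0 and 321 CPM against 6.4, 6.67, 7.0 and 5.94, a difference of 5.67 (SE 0.11). At 99.7 ± 9.19 CPM in fed wild type, it was the only one of these 6 genes that was higher in the fed labelled-deficient group than in both wild-type states. The cuticle collagen genes *col-93* and *col-94* differed by 7.27 and 5.52, and *ZK6.11* and *K11H12.4* by 5.60 and 5.26. Members of the collagen and yolk families resemble one another, and how their reads were divided is uncertain.

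The vacuolar ATPase, the proton pump that acidifies lysosomes and other compartments, lay near the fasted level after a shared fall. All 21 tested subunit genes fell on fasting in wild type, with a median log2 change of -1.1 (20 genes with library size alone), beside 30.6% of all tested genes. In the fed labelled-deficient group 18 of them were lower than in fed wild type, with a median of -1.02 (17 genes with library size alone), beside 31.7% of all genes. Against fasted wild type 12 were held, against a background of 19.6%, 12 were called higher and 3 lower, beside 30.4% and 33.2% of all genes, and the median difference was 0.26. Of the held genes 6 were also called. With library size alone 15 were held and 12 higher, and with DESeq2 scaling factors 10 were held and 15 higher. *vha-12*, a B subunit gene of the pump's peripheral part, was at 80.4, 105, 81.1 and 92.7 CPM in the fed labelled-deficient group and 71.5, 78.5, 75.9 and 81.2 CPM in fasted wild type. These values overlapped, and fed wild type was at 319 ± 47.3 CPM (SD, n = 4). The 95% interval of the difference ran from -0.0090 to 0.46. The intestinal a subunit gene *vha-6* lay below both wild-type states, at 51.8 CPM against 77.0 fasted and 244 fed, with a difference from fasted of -0.57 (SE 0.10, edgeR adjusted p 4.38e-05). The a subunit genes *vha-7* and *vha-5* lay above the fasted level by 0.98 and 0.84.

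Proteases of the lysosome divided. *cpl-1* and *cpz-1*, which encode cathepsins L and Z, were held: *cpl-1* was at 658 ± 51.5 CPM in the fed labelled-deficient group, 689.7 ± 24.5 CPM in fasted and 1725 ± 315 CPM in fed wild type (SD, n = 4). The interval of its difference from fasted was -0.32 to 0.18, and that of *cpz-1* was -0.086 to 0.42. *cpr-4*, a cathepsin B gene that fasting raises, was instead at 26.2, 34.4, 27 and 27.9 CPM in the fed labelled-deficient group against 377, 301, 342 and 301 fasted, a difference of -3.52 (SE 0.12, edgeR adjusted p 1.41e-15). The aspartyl protease genes *asp-8* and *asp-2* lay above the fasted level by 3.15 and 1.40, and *asp-11* was far under it, with 0 to 5 reads per fed labelled-deficient library against 154 to 226. Over the family 5 of 24 tested members were called higher and 16 lower, 3 were held, and the median was -0.97. Against fed wild type 17 were lower, with a median of -1.53, beside -0.63 for wild-type fasting itself.

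Genes of detoxification and amino acid breakdown gave single genes whose fed labelled-deficient level lay within 1.5-fold of the fasted one after a large fall. The 10 held genes with the largest wild-type fasting change were led by *kynu-1* (kynureninase), *tyr-4* (a tyrosinase), *fmo-3* (a flavin monooxygenase), *ugt-12* and *ugt-46* (UDP-glucuronosyltransferases), *gst-36* (a glutathione S-transferase), *K08D8.5* and *T01D1.3*, all lower after fasting. *kynu-1* (WBGene00015802, chromosome X, 6106927 to 6109338) was at 53.0, 56.8, 51.8 and 44.2 CPM in the fed labelled-deficient group and 44.7, 43, 44.7 and 44.4 CPM in fasted wild type, against 458 ± 60.4 CPM in fed wild type (SD, n = 4). Its groups overlapped, and the interval of the difference was -0.012 to 0.45. *ugt-12* (WBGene00020592, chromosome V, 4887165 to 4889629) was at 42.7, 35.9, 38.5 and 24.4 CPM against 41.8, 35.6, 35.1 and 29.7, with fed wild type at 230.3 ± 59.9 CPM. The groups overlapped, and the interval was -0.38 to 0.37. The 2 that rose on fasting were *smf-3*, a divalent metal transporter gene, and *cyp-13B1*, a cytochrome P450 gene. *smf-3* was at 16.9 ± 0.770 CPM in the fed labelled-deficient group, 17.8 ± 1.96 CPM in fasted and 3.115 ± 0.508 CPM in fed wild type. *T01D1.3*, *cyp-13B1* and *gst-36* lay nearest to the bound, and leaving out 1 library could take each of them over it. *gst-36* was also called lower than in fasted wild type, a call lost with DESeq2 (log2 difference -0.24). These genes were named because they were held, so their closeness is a description.

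The detoxification families as wholes were less uniform. Of 63 tested UDP-glucuronosyltransferase genes, 25 were higher and 24 lower than in fasted wild type, and 7 were held. Their median difference was -0.072, close to that of all genes, although members ranged from -3.110 (*ugt-17*) to 2.98 (*ugt-16*). The family median thus stood for members that differed in both directions. Glutathione S-transferase genes gave 10 higher, 15 lower and 8 held of 41 (median -0.028), shares close to the 30.4%, 33.2% and 19.6% of all tested genes. *gst-24* and *gst-38* stayed 2.37 and 2.89 above the fasted level. Cytochrome P450 genes were mostly lower, with 35 of 64 called lower, 11 higher and a median of -0.80. *cyp-34A9* had the largest deficit of the family, at 2.51 CPM against 145 (log2 -5.83, SE 0.20, edgeR adjusted p 1.18e-15).

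**Figure D2:**
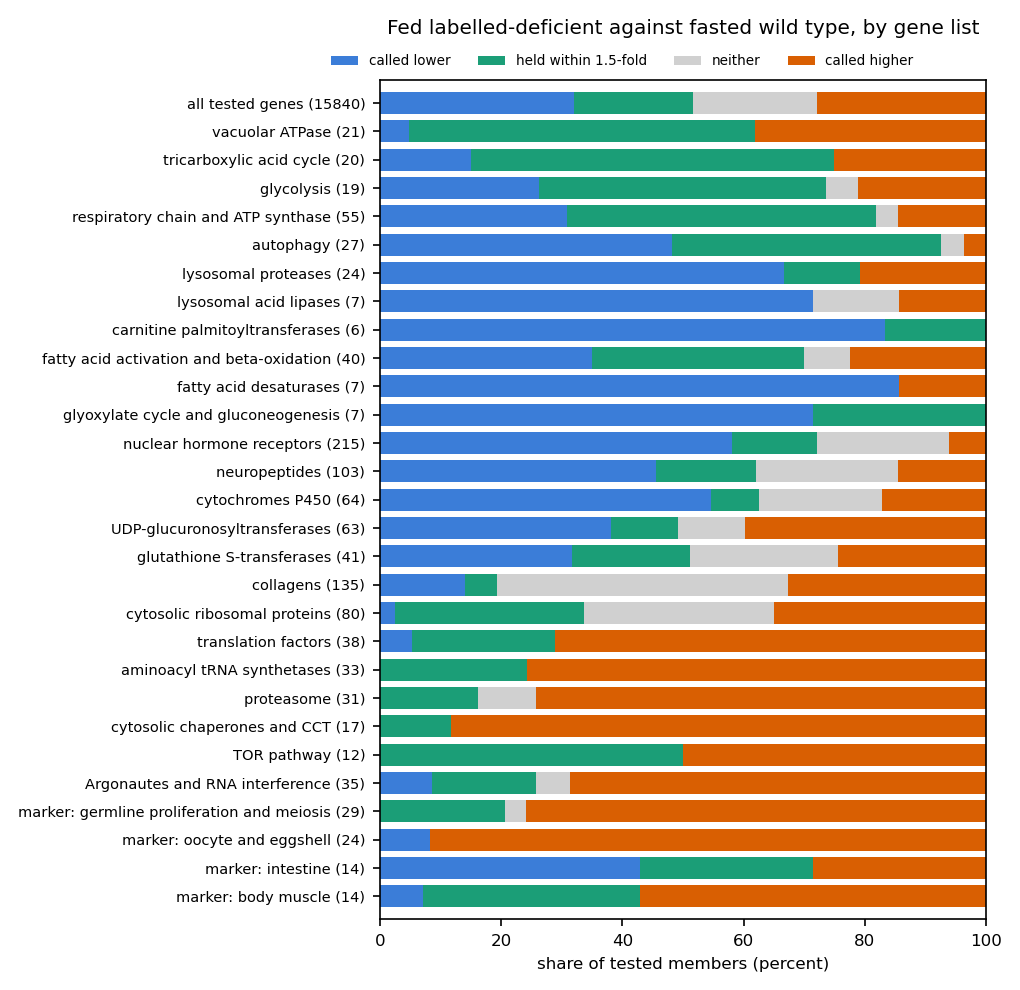
Share of the tested members of each gene list (percent, horizontal axis) that were called lower, called higher, held within 1.5-fold or neither in fed labelled-deficient against fasted wild type. Members both called and held are drawn as held. The top bar holds all 15840 tested genes, and the numbers after the names are the tested members.

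Lipases that fasting raises in wild type stayed low in the fed labelled-deficient group. Triglyceride stored in the intestine is hydrolysed by lysosomal and cytosolic lipases, and its fatty acids are activated, carried into mitochondria by carnitine palmitoyltransferases and oxidised. Of the 7 tested lysosomal acid lipase genes, 5 were lower than in fasted wild type and 1 (*lipl-7*) was higher, with a median of -3.16, and *lipl-6* was neither called nor held. *lipl-3* (WBGene00020016, chromosome V, 521595 to 524218) was at 1.95, 1.86, 1.72 and 1.87 CPM against 280.5, 261, 293 and 288 CPM. It was also below the 5.31 ± 1.19 CPM (SD, n = 4) of fed wild type (log2 -1.51, SE 0.16, edgeR adjusted p 3.36e-08). *lipl-5* and *lipl-2* were likewise under both wild-type states, at 75.6 and 12.8 CPM against 677 and 162 fasted and 436 and 76.4 fed. Of the cytosolic lipase genes, *atgl-1*, the adipose triglyceride lipase homologue, was held (interval -0.16 to 0.35), and its change on wild-type fasting also lay within 1.5-fold (-0.089). *fil-1* and *fil-2*, named as fasting-induced lipases, were -2.58 and -3.1 from the fasted level, and wild-type fasting itself changed them by 1.61 and -0.68. *lips-11*, another lipase gene, stood out in the other direction, at 14.7, 12.7, 12.8 and 14.8 CPM against 0.525, 0.544, 0.134 and 0.377, and fed wild type had 0.317 ± 0.154 CPM (log2 difference from fasted 5.12, SE 0.33, edgeR adjusted p 6.76e-13). Of the fatty acid binding protein genes, which carry lipid inside or between cells, 5 of 8 were lower, *lbp-9* was higher by 0.42 (a call lost without fasted wild-type replicate 2 or 3 or fed labelled-deficient replicate 4, with differences of 0.40, 0.33 and 0.36) and 2 were held. Of the latter, *lbp-2* was at 1335 ± 219 CPM in the fed labelled-deficient group, 1396 ± 190.0 CPM in fasted and 2273 ± 587 CPM in fed wild type.

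Genes of fatty acid activation and oxidation divided. *acs-2* (WBGene00009221, chromosome V, 15567394 to 15569897), an acyl-CoA synthetase gene and known NHR-49 target, was at 22.9, 27.2, 26.6 and 21.5 CPM in the fed labelled-deficient group and 908, 1038, 1085 and 1026 CPM in fasted wild type, a difference of -5.37 (SE 0.11, edgeR adjusted p 5.65e-19). *cpt-3*, a carnitine palmitoyltransferase gene, was at 2.96 against 96.5 CPM (-5.02, SE 0.18), and *hacd-1*, a hydroxyacyl-CoA dehydrogenase gene, at 45.6 against 392 CPM. Of the 6 palmitoyltransferase genes 5 were lower and *cpt-2* was called higher by a difference of 0.28 that was still within 1.5-fold. By contrast *acdh-1*, the acyl-CoA dehydrogenase gene of the propionate shunt, was held at 106 ± 14.1 CPM against 123 ± 13.6 CPM (SD, n = 4, interval -0.50 to 0.075), down from 559 ± 128 CPM in fed wild type. Leaving out fasted wild-type replicate 4 or fed labelled-deficient replicate 1 took the *acdh-1* interval just past the bound. The acyl-CoA oxidase gene *acox-1.5* and the enoyl-CoA hydratase gene *ech-6* were held as well. *hphd-1*, another propionate shunt gene, was -1.83 from the fasted level, and its change on wild-type fasting was -0.13 and within 1.5-fold. Over activation and oxidation together, 9 of 40 tested members were called higher and 19 lower, 14 were held, and the median was -0.24.

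Fat synthesis genes were mixed. *dgat-2*, which encodes a diacylglycerol acyltransferase of triglyceride synthesis, stayed at the fed level, with 85.4, 97.0, 88.9 and 89.2 CPM against 14.5, 14.6, 15.8 and 14.7 CPM in fasted wild type (log2 2.59, SE 0.10, edgeR adjusted p 8.14e-15) and 84.3 ± 10.1 CPM in fed wild type. *fasn-1*, the fatty acid synthase gene, lay between the wild-type states, at 101 CPM against 59.7 fasted and 233 fed. *sbp-1*, the SREBP homologue that drives lipid synthesis, lay under both, at 20.8 CPM against 78.3 and 56.2 (-1.91 from fasted, SE 0.12). Desaturases, which introduce double bonds into fatty acids, were lower in 6 of 7 and higher in 1, with a median of -1.53. *fat-3* was at 65.3, 57.2, 59.8 and 59.7 CPM against 529, 461, 522 and 475, and at 172 ± 26.9 CPM in fed wild type. All 7 desaturase genes were also lower in the fed labelled-deficient group than in fed wild type, by a median of -1.42 (-1.12 with library size alone). The median change of the family on wild-type fasting depended on the scaling. It was 0.15 with 3 genes higher, and 0.50 with 5 higher with library size alone. The one called higher was *fat-7*, a stearoyl-CoA desaturase gene that fasting lowers, which at 10.3 CPM was between 3.97 fasted and 40.7 fed. *elo-6*, an elongase gene, was -2.69 from the fasted level.

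Carbohydrate metabolism showed both patterns inside single pathways. In the glyoxylate cycle and gluconeogenesis 5 of 7 genes were lower, none was higher and 2 were held. *icl-1* (WBGene00001564, chromosome V, 724332 to 728004), whose product runs the glyoxylate cycle, was at 93.6, 121, 114 and 117 CPM against 1438, 1683, 1701 and 1566 CPM (-3.84, SE 0.12, edgeR adjusted p 5.90e-16), and below the 298 ± 47.4 CPM of fed wild type. *pck-2* and *pck-1*, the phosphoenolpyruvate carboxykinase genes, were -2.26 and -1.18 from the fasted level. *fbp-1*, the fructose bisphosphatase gene of the same route, was held at 82.7 ± 13.2 CPM against 88.4 ± 6.05 CPM (SD, n = 4, interval -0.33 to 0.14), with 192 ± 16.6 CPM in fed wild type. In glycolysis 6 of 19 genes were higher, 5 lower and 9 held, beside 30.4%, 33.2% and 19.6% of all genes. Among those held were *enol-1* (enolase) and *ldh-1* (lactate dehydrogenase), both lower than in fed wild type (-0.71 and -1.0, beside -0.79 and -0.76 on fasting). The interval of *ldh-1* passed the bound without any one of 3 of the 8 libraries. *aldo-2* and *pyk-2*, which fasting raises, were -1.84 and -1.94 from the fasted level. The trehalase gene *tre-5* was at 1.78 against 31.9 CPM, whereas *tre-2* was 1.1 above the fasted level and *tre-1* was held. The trehalose synthase genes *tps-1* and *tps-2* were -1.62 and -1.07 from it. Glycogen synthase *gsy-1* was held and glycogen phosphorylase *pygl-1* was 0.75 above.

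Nuclear genes of mitochondrial energy metabolism were often near the fasted level and often near the fed one. Many of them were also within 1.5-fold between fasted and fed wild type. In the tricarboxylic acid cycle 12 of 20 genes were held against fasted wild type, and 12 were within 1.5-fold on wild-type fasting itself (14 with library size alone). For the respiratory chain and ATP synthase the numbers were 28 and 31 of 55 (31 on fasting with library size alone). Between fed labelled-deficient and fed wild type, 16 and 27 genes of these lists lay within 1.5-fold (16 and 35 with library size alone). The held counts thus do not set the fasted level apart from the fed one. *cts-1* (citrate synthase) and *aco-2* (aconitase), which fasting raises, stayed -1.04 and -0.85 from the fasted level and close to fed wild type (-0.028 and -0.0033). All 12 tested genes of the mitochondrial genome were lower in the fed labelled-deficient group than in fasted wild type, with a median of -1.2. Wild-type fasting had raised 9 of them, with a median of 0.88, and against fed wild type the median of the fed labelled-deficient group was -0.16. The libraries were made by poly(A) selection, and its part in the mitochondrial values was not tested.

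**Figure D3:**
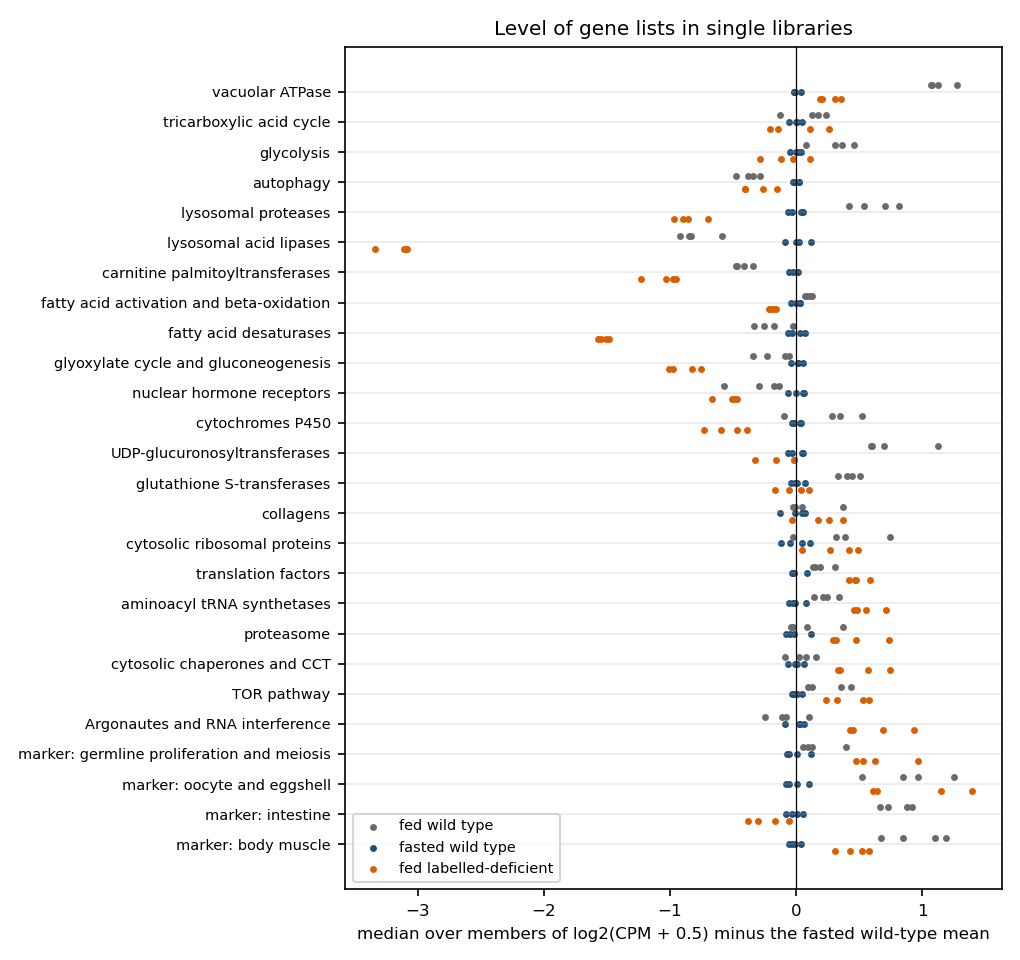
Level of 26 gene lists in each library, as the median over the members of the log2 difference from the fasted wild-type mean (horizontal axis, log2 of CPM plus 0.5). Points are single libraries of fed wild type, fasted wild type and fed labelled-deficient animals, and the vertical line marks the fasted wild-type mean. Vacuolar ATPase points of the fed labelled-deficient group lie next to the line, those of lysosomal acid lipases lie far to its left and those of oocyte genes to its right.

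Genes of protein synthesis and quality control were called higher than fasted far more often than lower, and several of these lists were also mostly higher than in fed wild type. Of 33 aminoacyl tRNA synthetase genes 28 were higher than in fasted wild type and none was lower (median 0.53), and 18 were higher than in fed wild type (median 0.32). Translation factors gave 30 higher and 3 lower of 38 (median 0.46), led by *ife-3*, a cap-binding eIF4E gene, at 286, 356, 283 and 416 CPM against 124, 122, 124 and 137. The proteasome gave 24 higher and none lower of 31 (median 0.48), and 19 higher and 2 lower against fed wild type. Cytosolic chaperones and the CCT chaperonin gave 15 higher and none lower of 17 (median 0.50), against 1 higher and 2 lower on wild-type fasting (11 and 1 with library size alone). Ribosome biogenesis genes gave 10 higher and none lower of 19 (median 0.40). *hsf-1*, the heat shock factor gene, was at 57.5, 70.03, 57.1 and 76.6 CPM in the fed labelled-deficient group and 31.1, 37.1, 36 and 40.2 CPM in fasted wild type, without overlap, and at 40.6 ± 6.13 CPM in fed wild type. Of 80 ribosomal protein genes 29 were higher, 2 lower and 25 held (median 0.31), beside 30.4%, 33.2% and 19.6% of all genes. Against fed wild type 1 of them was higher, 7 were lower and 59 lay within 1.5-fold (median -0.095), counts that became 28 higher with 2 lower when only library size was used. On the scale of TPM (transcript abundance scaled to one common total, which corrects for length), they made up 22.1% ± 1.66 of all transcripts in the fed labelled-deficient group, 17.3% ± 1.43 in fasted and 18.4% ± 2.11 in fed wild type (SD, n = 4).

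Stress genes were divided. Small heat shock proteins that fasting induces stayed far under the fasted level: *hsp-12.6* is given above and *hsp-12.3* was at 2.45 CPM against 161. *hsp-25* and *hsp-43*, small heat shock genes that fasting lowers, were held, at 48.2 against 56 and 145 against 133 CPM, from 108 and 267 CPM in fed wild type. In the endoplasmic reticulum *crt-1*, the calreticulin gene, was at 389.6, 476, 395 and 429 CPM against 1399, 1416, 1389.8 and 1389 CPM (-1.73, SE 0.12, edgeR adjusted p 1.16e-10), while *hsp-4*, a BiP gene, was held with an interval of 0.0019 to 0.46. Of 17 endoplasmic reticulum stress genes 4 were higher, 8 lower and 9 held (median -0.052). Only 1 of them was at least 2-fold lower. All tested genes gave 30.4% higher, 33.2% lower and 19.6% held. The mitochondrial chaperonin gene *hsp-60* was higher than in either wild-type state, at 89.5, 114, 108 and 134 CPM against 38, 39.9, 37.7 and 43.2 fasted and 44 ± 5.07 CPM fed. Of 12 mitochondrial stress response genes 7 were higher than fasted, 4 lower and 2 held (median 0.33). *mtl-1*, a metallothionein gene, was at 29.2 against 833 CPM, and the catalase gene *ctl-2* and the superoxide dismutase gene *sod-3* were -2.43 and -2.25 from the fasted level. The superoxide dismutase and peroxiredoxin genes *sod-1*, *sod-2* and *prdx-2* were held.

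Autophagy genes, which rise on fasting in wild type (17 of 27 higher, median 0.37), were lower than fasted in 13, higher in 2 and held in 12, with a median of -0.29. Against fed wild type 18 lay within 1.5-fold with a median of -0.041 (16 and 0.26 with library size alone). On wild-type fasting itself 11 were within 1.5-fold (8 with library size alone). The held count thus does not set the fasted level apart from the fed one. *hlh-30*, the TFEB homologue that drives lysosome and autophagy genes, was at 38.7, 60.3, 47.4 and 58.5 CPM against 94.4, 105, 106 and 102 CPM, without overlap (-0.99, SE 0.14, edgeR adjusted p 3.24e-06). It was also below fed wild type, at 79.0 ± 15.8 CPM. *mxl-3*, which encodes a basic helix-loop-helix repressor known to keep lysosomal lipase genes off in fed worms, was by contrast held at 31.1, 28.8, 30.5 and 27.5 CPM against 27.2, 27.9, 30.5 and 29.1. Those ranges overlapped, and fed wild type was at 124 ± 15.7 CPM (SD, n = 4). *hlh-11*, a repressor of *atgl-1* in worms, was held at 36.4 ± 3.27 CPM against 33.0 ± 3.60 CPM, from 91.6 ± 9.66 CPM in fed wild type, and *daf-12* was held as well. Over the 23 regulators of fasting and fat, 12 were lower, 3 higher and 10 held. Of 215 tested nuclear hormone receptor genes 128 were lower and 14 higher, with a median of -0.65. Fasting raised 93 of them in wild type. All tested genes gave 30.4% higher, 33.2% lower and 19.6% held against fasted wild type, and wild-type fasting raised 30.4%.

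Nutrient signalling genes also separated the groups. *daf-2*, the insulin receptor gene, which fasting raises, was at 38.9, 66.2, 43.1 and 71 CPM against 83.7, 120.0, 114 and 106 CPM (-0.95, SE 0.18, edgeR adjusted p 1.05e-04) and close to the 48.9 ± 11.2 CPM of fed wild type. The insulin receptor substrate gene *ist-1* and the kinase gene *akt-2* were -1.92 and -1.2 from the fasted level, and *daf-16* was held (-0.31 to 0.19). *ins-7*, an insulin-like peptide gene, was at 53.2 CPM against 9.03 fasted and 47.5 fed, and *ins-19* at 1.09 against 14.9 and 9.30. Of 29 tested insulin-like peptide genes 2 were higher, 15 lower and none held, with a median of -0.64. Another 12 were neither called nor held, beside 20.5% of all genes. In the TOR pathway 10 of 12 genes were higher and none lower (median 0.41), including *let-363*, the TOR kinase gene, by 0.57, and 6 were held, with *rsks-1*, the S6 kinase gene, nearest to the fasted level. Over all genes 30.4% were higher, 33.2% lower and 19.6% held. AMPK subunit genes went both ways: *aakg-4*, a gamma subunit gene that fasting raises, was -2.48 from the fasted level, *aak-2* was -1.1, and *aak-1* was 0.50.

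One-carbon metabolism held another gene at the fasted level. *sams-1* (WBGene00008205, chromosome X, 11965962 to 11969893), an S-adenosylmethionine synthetase gene, was at 44, 49.7, 39.3 and 41.7 CPM in the fed labelled-deficient group and 35.1, 37.4, 40.5 and 37.8 CPM in fasted wild type, against 129 ± 20.6 CPM in fed wild type (SD, n = 4). The ranges overlapped and the interval was -0.030 to 0.45. *pmt-1*, a phosphoethanolamine methyltransferase gene of phosphatidylcholine synthesis, was -1.58 from the fasted level (SE 0.10, edgeR adjusted p 2.06e-11) although fasting changes it by 0.12. Over one-carbon and phosphatidylcholine synthesis 7 of 17 tested genes were higher, 4 lower and 6 held (median 0.21). All tested genes gave 30.4%, 33.2% and 19.6%. On wild-type fasting itself 8 of the 17 lay within 1.5-fold (6 with library size alone).

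**Figure D4:**
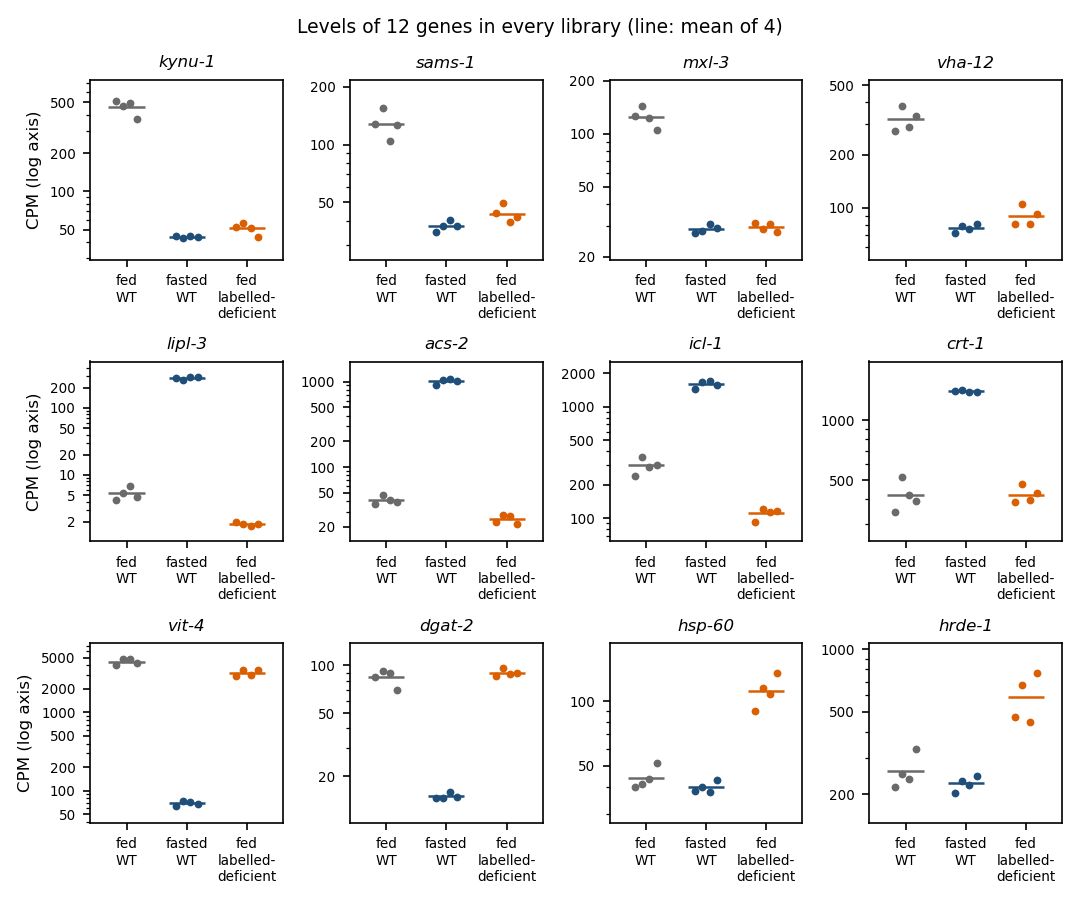
Levels of 12 genes (CPM, log axis) in every library of fed wild type, fasted wild type and fed labelled-deficient animals. Points are libraries and bars are means. The upper row holds genes at the fasted level in the fed labelled-deficient group, the middle row genes that fasting induces and that stayed low, and the lower row genes that fasting represses and that stayed high or genes above both wild-type states.

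Most oocyte and germline markers were above the fasted level. Oocyte and eggshell markers fell on fasting in 23 of 24 (median -0.90, 16 genes with library size alone). In the fed labelled-deficient group 22 of 24 were higher than fasted, with a median of 0.96. *rme-2*, the yolk receptor gene of oocytes, was at 249.8, 416, 263 and 461 CPM against 106, 118, 113 and 131 CPM, and at 263 ± 50.9 CPM in fed wild type. The difference from fasted was 1.57 (SE 0.18, edgeR adjusted p 1.83e-07), without overlap. The exceptions were *perm-2* and *perm-4*, eggshell permeability genes, at 363 and 597 CPM against 725 and 1143 fasted and 2568 and 4436 fed. Germline markers were higher in 23 of 29 and lower in none (median 0.65), and 19 were higher than in fed wild type. Argonaute and RNA interference genes gave 25 higher and 3 lower of 35 (median 0.72). *hrde-1*, a germline nuclear Argonaute gene, was at 473, 673, 448 and 772 CPM against 203, 233, 222 and 245, and at 259 ± 49.7 CPM in fed wild type. Since only one genotype was exposed to a gene-directed interference trigger, genotype and trigger cannot be told apart in these Argonaute values. Yolk genes split, with *vit-1*, *vit-3* and *vit-4* higher by 3.31, 3.76 and 5.55, *vit-5* held (-0.38 to 0.16), and *vit-2* and *vit-6* lower at -1.17 and -0.75.

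Genes of chromatin itself did not share one level. Among acetyltransferases, deacetylases and enzymes of lysine 27 of histone H3, 13 of 28 tested members were called higher and 8 lower, and 7 were held. These were 46.4%, 28.6% and 25%, beside 30.4%, 33.2% and 19.6% of all genes. *mes-6*, a subunit gene of the methyltransferase complex that acts on this lysine, was at 52.7, 56.5, 51.3 and 68.5 CPM against 25.8, 33.5, 32.7 and 33.7 CPM, without overlap, and at 25.3 ± 2.48 CPM in fed wild type (log2 difference from fasted 0.86, SE 0.11, edgeR adjusted p 1.46e-06). The acetyltransferase gene *pcaf-1* and the deacetylase gene *hda-6* lay 0.78 and 0.77 above the fasted level, and the deacetylase gene *hda-5* was -1.47 from it. *cbp-2*, which resembles *cbp-1*, was held at 69.4 ± 10.7 CPM against 84.7 ± 4.34 CPM (SD, n = 4, interval -0.58 to 0.0045), which passed the bound without any one of 7 of the 8 libraries, and because the genes are alike, reads may be divided between them, so its level is uncertain. Histone genes gave 17 higher, 2 lower and 8 held of 48. *his-24*, a linker histone gene that fasting raises, was held at 137 ± 16.4 CPM against 154 ± 14.8 CPM, up from 59.0 ± 15.4 CPM in fed wild type. *his-71*, a histone H3.3 gene that fasting also raises, was instead at 23.7 CPM against 48.8 fasted and 23.5 fed. Messages of replication-dependent histones lack a poly(A) tail and near-identical copies share reads, so their levels are uncertain here.

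Markers of somatic tissues differed from tissue to tissue, and are read beside 30.4% higher, 33.2% lower and 19.6% held over all genes. Of 14 body muscle markers 9 were higher, 1 lower and 5 held, and fasting had lowered 11 of them in wild type (9 with library size alone). *unc-89* and *unc-22*, giant kinase genes of the sarcomere, were 1.61 and 1.37 above the fasted level and near fed wild type (0.28 and 0.056), whereas *lev-11* (tropomyosin) and *tnt-2* (troponin T) were held, at -0.75 and -1.1 relative to fed wild type. Intestinal markers gave 4 higher, 7 lower and 4 held of 14. *elt-2*, the defining transcription factor gene of the intestine, was held at 24.6 ± 2.24 CPM against 22.2 ± 1.88 CPM (SD, n = 4). *act-5*, the microvillar actin gene, was 2.26 above and *ges-1*, a gut esterase gene, -2.69 from the fasted level. Neuronal markers gave 5 higher, 6 lower and 7 held of 21, and markers of the early embryo 2 higher, 13 lower and 3 held of 23. Summed over the lists, germline markers took 0.328% ± 0.0344 of TPM in the fed labelled-deficient group and 0.224% ± 0.0138 in fasted wild type, oocyte markers 0.705% ± 0.140 and 0.491% ± 0.0368, and intestinal markers 0.189% ± 0.0110 and 0.216% ± 0.00598 (SD, n = 4). Fed wild type had 0.214% ± 0.0428, 0.966% ± 0.108 and 0.307% ± 0.0235 for germline, oocyte and intestinal markers. The oocyte sum thus lay between the wild-type states and the intestinal sum below both. The part of tissue proportions in the gene lists above was not tested.

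Collagen, lysozyme, dod and nematode-specific peptide genes had few members shown to be held at the fasted level, beside 19.6% of all genes. Of 135 tested collagen genes 44 were higher, 19 lower and 7 held, beside 30.4%, 33.2% and 19.6% of all genes. Another 65 were neither called nor held, beside 20.5% of all genes. The low held count of collagens thus goes with many undecided genes, and not with more called ones. On the TPM scale collagens took 1.49% ± 0.187 of transcripts in the fed labelled-deficient group, 0.417% ± 0.0138 in fasted and 4.34% ± 0.681 in fed wild type. *col-19*, an adult cuticle collagen gene, was at 451, 680.5, 547 and 520.0 CPM against 193, 204, 171 and 193. The summed collagen level of the fed labelled-deficient group thus lay between the wild-type states. The dod genes, named for lying downstream of DAF-16, gave 0 held of 10: *dod-19* was 4.32 above the fasted level, *dod-3* -3.22 and *dod-22* -4.09 from it. Among lysozyme and saposin-like genes 18 of 31 were lower and 1 was held, *spp-10*, and *ilys-3*, an invertebrate lysozyme gene, was at 0.146 against 11.3 CPM. The nematode-specific peptide genes nspa to nspe had 18 of 30 lower and none held, led by *nspc-16* at 1.45 CPM against 71.7 fasted and 60.2 fed. These genes have close copies, so the level of a single one is uncertain. Neuropeptide genes had 47 of 103 lower, 16 higher and 17 held, a held share close to that of all genes, with *nlp-49* and *nlp-6* held and at -2.0 and -1.85 relative to fed wild type.

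By chromosome, the comparison was uneven. Of 2298 tested genes on X, 52.3% were lower and 10.7% higher than in fasted wild type, with a median of -0.46. On chromosomes I and III 23.4% and 24.2% were lower and 39.8% and 38.5% higher, with medians of 0.16 and 0.16. The remaining autosomes had medians between -0.21 (V) and 0.027 (IV). Against fed wild type 1026 X-linked genes were lower and 284 higher, with a median of -0.35. Wild-type fasting lowered 26% and raised 37% of them. The share of X-linked genes held at the fasted level was 18.7%, beside 24.0% on chromosome I. The *jmjd-3.1* mutation lies on X, genes expressed in the germline are known to be rare on X, and germline markers were higher in the same libraries. The part of either in the X-linked values was not tested.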

How the data were processed

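RNA from whole animals was sequenced after poly(A) selection in 16 libraries. The authors deposited estimated counts per gene, which are not normalised, and per-transcript TPM (transcript abundance scaled to one common total). Per the submitters' processing notes, Salmon 1.9.0 and R 4.3.2 were used with WBcel235, and their roles are not given in the sources used here. Whether counting used strand is also not given, so overlapping and near-identical genes remain uncertain. The expected counts were rounded to whole numbers, and 15840 of 21982 genes passed edgeR's filter on low counts.

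The fit used edgeR 4.0.16 (R 4.3.3) with TMM factors, the quasi-likelihood test over all 16 libraries and Benjamini-Hochberg adjustment at 0.05. A gene was held when the 95% interval of its log2 difference (standard error of the fit, t distribution) lay within 1.5-fold. CPM are TMM-scaled. TPM were summed over a list's transcripts, as deposited. Alternatives were DESeq2 1.42.0, limma 3.58.1 voom, other scaling and filters, a replicate block and each library left out. The fit and its intervals were tested on simulated data.

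Named genes were the 6 largest called differences in each direction at 5 CPM or more, the 10 held genes with the largest wild-type fasting change, the targets, members of short lists, and for longer lists up to 3 called in each direction and 3 held, of which not all are printed. Members and lists were chosen with earlier results of these data known. Same-numbered libraries deviated together for fed labelled-deficient and fed wild type (Pearson r 0.34, 0.18, 0.11 and 0.42 for replicates 1 to 4, across genes). Each fed labelled-deficient library correlated best with its own number, so the numbers may pair these groups. The values given for them are still from the fit without the block (the closing section gives the blocked count). Coordinates are from Ensembl's WBcel235 annotation.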

Additional observations from a re-analysis of the deposited data

Results flagged for a closer look

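For each gene named above, the highest and the lowest of the 4 libraries of each of the 2 groups were compared with the remaining 3 by Dixon's criterion. Of 298 sets of 4, 12 held a library that stood apart, and chance alone gives about 1 in 20. In the fed labelled-deficient group, replicate 2 was highest for *jmjd-3.1* (21.4 CPM, the others 15.9 to 16.2), *ctl-2* (42.9 CPM, the others 39.3 to 39.9) and *pck-2* (308 CPM, the others 261 to 269). Replicate 4 was highest for *cpt-2* (97.3 CPM, the others 83.8 to 85.6), replicate 1 lowest for *lipl-5* (66.5 CPM, the others 78.1 to 79.3) and replicate 3 lowest for *hda-5* (12.7 CPM, the others 13.9 to 14.1). In fasted wild type, replicate 4 was lowest for *elo-6* (858 CPM, the others 1227 to 1302) and *lipl-2* (125.7 CPM, the others 172 to 175) and highest for *aakg-4* (41.2 CPM, the others 37.4 to 38) and *ife-3* (137 CPM, the others 122 to 124). Replicate 3 was highest for *dgat-2* (15.8 CPM, the others 14.5 to 14.7), and replicate 1 lowest for *mes-6* (25.8 CPM, the others 32.7 to 33.7). Leaving out fed labelled-deficient replicate 2 moved the *jmjd-3.1* difference from -0.20 to -0.32, which was then called lower, as it was at -0.29 without fasted wild-type replicate 1. The calls of the other 11 genes did not change when the library named for each was left out.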

How the results depend on the processing

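For fed labelled-deficient against fasted wild type, the count of called genes ranged from 7135 (genes of at least 5 CPM) to 10972 (replicate block) around 10072, from 9164 to 9872 when 1 library was left out, and was 10238 with DESeq2 and 10108 with voom. The held count of 3099 was 2641 to 3343 with 1 library left out, 3817 with the replicate block, 8218 with a 2-fold bound and 1945 with a 99% interval. Same-numbered libraries of these groups correlated at r 0.15, 0.18, -0.019 and 0.32 for replicates 1 to 4. Fed labelled-deficient replicates 1, 2 and 4 correlated best with their own number in fasted wild type, and replicate 3 with number 1. Whether replicate numbers pair these groups is thus not settled, and the values given are from the fit without the block. For wild-type fasting, library size alone gave 7458 higher and 2523 lower genes, and the filter at 5 CPM gave 6245 called genes with 2985 higher. Against fed wild type, library size alone gave 5903 higher and 3018 lower genes, and the replicate block 9951 called genes in place of 8908. Library size alone moves every gene of a comparison together and the higher filter tests fewer genes. The cause of the block's change was not tested. Of 60 lists, 19 had a median beyond 1.5-fold, and 14 to 19 with 1 library left out. Of the 149 named genes, 16 had a call that differed under any alternative, and no called gene reversed. Of 46 named held genes, 33 were held under all 15 alternatives that give an interval. Promoter motifs were planned and not run. With 4 libraries a group, p-values set each difference against the spread between replicate populations, estimated over all 16 libraries.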

Other observations

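Further gene families were compared between fed labelled-deficient and fasted wild-type animals (edgeR quasi-likelihood test, adjusted p under 0.05 over all genes). Of all tested genes 30.4% were higher, 33.2% lower and 19.6% held, and several of these families, such as the hypodermis markers and the MATH and BATH domain genes, were called about as often as genes in general. C-type lectin genes, a large family of which many members respond to bacteria, gave 27 higher, 56 lower and 8 held of 121 (median -0.42). *clec-258* and *clec-52* lay 4.61 and 3.48 above the fasted level on the log2 scale and *clec-55* -4.72 from it. Hedgehog-like and patched-related genes, whose products act in the nematode cuticle and epidermis, gave 15 higher, 24 lower and 5 held of 63 (median -0.21), with *grd-3* 3.06 above and *ptr-3* -2.35 from the fasted level. F-box A genes, of a family linked to protein ubiquitination, gave 29 higher, 75 lower and 29 held of 182 (median -0.40), and MATH and BATH domain genes 32 higher, 19 lower and 15 held of 80 (median 0.12). Transthyretin-like genes gave 10 higher, 27 lower and 8 held of 50 (median -0.39). Amino acid and peptide transporter genes gave 2 higher, 8 lower and 1 held of 12 (median -0.52), with *aat-6* at 4.59 CPM against 19.5 fasted and 11.9 fed. Sperm markers gave 9 higher, 3 lower and 0 held of 17 (median 1.05), and hypodermis markers 4 higher, 3 lower and 3 held of 11 (median -0.0038). Close copies exist in the lectin, F-box and MATH families, so the level of a single member is uncertain.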
